A study of Mus musculus with 14 samples.

Results

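NF-κB is a family of dimeric transcription factors, and the genes described here encode its subunits and the proteins that hold it back or release it. They are the subunits Rela, Relb, Rel, Nfkb1 and Nfkb2, the inhibitors Nfkbia and Tnfaip3, the kinase complex members Ikbkb and Ikbkg, and the adaptor Traf6. Members were chosen by name: every probe set whose only gene symbol in the probe table of the array is one of these 10 was taken. That gave 21 of the 22626 probe sets, for 9 of the 10 genes, and Nfkb1 is named only. A gene with several probe sets was read on the one with the highest mean over the 8 arrays of wild-type (WT) hematopoietic stem cells (HSC), and the others are given beside it.

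RNA was measured on 14 Affymetrix MOE430A arrays, which the labels place in 7 groups of 2, lettered A and B. WT mice were male C57Bl/6. HSC came from WT mice of 2, 6, 12 and 21 mo, from p53+/m mice of 12 mo, which carry a truncated p53 allele with an augmented response beside a WT allele, and from p53+/- mice of 12 mo, which carry 1 null allele. Whole bone marrow (WBM), the unsorted cells of the marrow, came from WT mice of 2 mo. HSC were sorted as side population cells, which pump out the dye Hoechst, that were also c-Kit positive, Sca-1 positive and lineage negative. For each HSC array, cells of 2 to 5 mice were combined and their RNA was amplified in 2 rounds, so that p-values measure the spread between pools, and pooling of WBM is not stated in the sources used here. The p53 mutants had been backcrossed to C57Bl/6 for at least 4 generations, and the WT arrays of 12 mo serve both as an age and as the comparison for the genotypes. The age field of the labels reads 2 mo throughout, and the ages used here are those of the sample titles. Values are the authors' GC-RMA values, 1 log2 value per probe set, and a log2 value of 5 was taken as the level above which a probe set stands clear of the floor of the array.

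The sorted cells carried the HSC label in their markers. Of 11 measured HSC markers, 9 or 10 stood at log2 5 or above on each HSC array, against 6 on each WBM array. None of 8 erythroid markers did so on any HSC array, against all 8 on both WBM arrays. Of 11 neutrophil markers 1 to 7 did so on the HSC arrays, against all 11 on both WBM arrays. Of 10 monocyte and macrophage markers 2 to 6 did so on the HSC arrays, most at 21 mo (4 and 6), against 7 and 8 in WBM. The 8 megakaryocyte and platelet markers hardly set the cells apart, with 3 on each HSC array and 4 on each WBM array. The WT arrays of 12 mo stood apart from each other. Of 12393 genes, 17% differed at least 2-fold between them, against 1.37% to 5.15% between the arrays of the other 6 groups. In a principal component analysis of HSC, the leading component (42.1% of variance) placed array A of 12 mo (56.4) beside the 21 mo arrays (67.4 and 64.8) and array B of 12 mo (-42.9) beside the 2 mo arrays (-53.2 and -54.6). On these arrays the control signal for the 5′ end of 18S rRNA ran the same way. It was 10.91 and 10.88 at 2 mo, 4.66 and 9.68 on the 12 mo arrays A and B, and 4.84 and 5.44 at 21 mo. On the 6 mo arrays it was 11.19 and 8.28, and on the WBM arrays 5.32 and 5.14. Array A of p53+/m, at 5.71, was near the 21 mo signal but lay at -12 on the component. Array B of p53+/m read 7.18 (-0.0148 on the component), and the p53+/- arrays 8.92 and 7.96 (5.66 and 21.6).

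In resting cells, dimers of RelA (p65), RelB, c-Rel, p50 and p52 are held in the cytoplasm by inhibitor proteins of the IκB family, of which Nfkbia encodes IκBα. Signals from receptors for tumor necrosis factor, interleukin 1 and bacterial products pass through adaptors such as TRAF6 to the IκB kinase complex, made of catalytic subunits that include IKKβ (Ikbkb) and the scaffold NEMO (Ikbkg). The kinase marks IκB for degradation, the dimer enters the nucleus and binds κB sites, and among the genes it turns on are Nfkbia and Tnfaip3 (A20), which shut the pathway off. A second route, through the precursor p100 of Nfkb2 and its partner RelB, is slower. Much of this control acts on protein and its place in the cell, which arrays do not measure. The study looked at the pathway because p65 regulates P-selectin (Selp), an adhesion molecule of stressed and inflamed cells. By staining, it found p65 protein in the nucleus of a far larger share of old than of young HSC. From this the paper proposes NF-κB activation as the source of the P-selectin rise.

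The promoters of 4 members are printed because they show, side by side, the gene that moved with age (Traf6), the subunits Rela and Nfkb2, and the inhibitor Nfkbia. Each is the RefSeq window on GRCm38.p6 from 250 bases before to 50 bases after the start site, read 5′ to 3′ on the gene's strand. Capitals mark every match, on either strand, to the κB forms GGGNNNTTCC and GGGNNNTCCC, and matches to both forms or to both strands overlap.
Traf6 (chr2:101678170-101678469, + strand): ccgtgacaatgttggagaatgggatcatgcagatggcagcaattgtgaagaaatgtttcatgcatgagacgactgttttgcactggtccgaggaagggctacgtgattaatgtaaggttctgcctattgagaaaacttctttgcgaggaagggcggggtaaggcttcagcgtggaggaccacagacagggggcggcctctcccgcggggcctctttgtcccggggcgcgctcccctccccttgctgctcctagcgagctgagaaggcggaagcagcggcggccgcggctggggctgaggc
Rela (chr19:5637291-5637590, + strand): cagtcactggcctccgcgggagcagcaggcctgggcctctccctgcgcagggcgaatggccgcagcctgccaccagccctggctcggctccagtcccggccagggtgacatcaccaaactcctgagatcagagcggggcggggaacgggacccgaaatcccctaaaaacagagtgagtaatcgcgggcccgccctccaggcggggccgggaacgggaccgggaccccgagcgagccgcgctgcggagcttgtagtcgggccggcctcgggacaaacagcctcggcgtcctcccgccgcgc
Nfkb2 (chr19:46304487-46304786, + strand): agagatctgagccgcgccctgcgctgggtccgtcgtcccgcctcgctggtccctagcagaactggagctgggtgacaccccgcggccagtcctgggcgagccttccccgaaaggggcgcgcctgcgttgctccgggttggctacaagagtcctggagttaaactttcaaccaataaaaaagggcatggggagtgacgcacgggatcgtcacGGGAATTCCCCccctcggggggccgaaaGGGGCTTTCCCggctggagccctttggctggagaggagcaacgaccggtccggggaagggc
Nfkbia (chr12:55492598-55492897, - strand): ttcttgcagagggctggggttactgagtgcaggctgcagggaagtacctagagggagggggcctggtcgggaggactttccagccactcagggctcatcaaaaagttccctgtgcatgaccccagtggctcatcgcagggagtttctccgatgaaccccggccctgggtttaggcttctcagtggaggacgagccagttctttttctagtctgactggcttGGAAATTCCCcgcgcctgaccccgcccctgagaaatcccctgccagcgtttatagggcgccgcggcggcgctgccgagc

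No match to these letters lies in the windows of Traf6 and Rela. Nfkb2 has 3 windows in the table, of which the one printed holds GGGAATTCCC, starting 39 bases before the start site and read the same on both strands, overlapped by GGAATTCCCC, and GGGGCTTTCC overlapped by GGGCTTTCCC, starting 11 and 10 bases before it. The other windows of Nfkb2, not printed, hold GGAATGTCCC and GGGACTTTCC in one and GGGACTTTCC in the other. The window of Nfkbia holds GGAAATTCCC at 29 bases before the start site. Rel and Tnfaip3, whose windows are not printed because their probe sets stayed at the floor of the array, hold GGGAAATCCC and GGAAATCCCC among their matches. Of the 7 members with a window in the table, 4 hold a match (57.1%), against 11.7% of 27025 genes with a window and 10.4% of all 32851 windows of this length. Of 37 genes on a list of NF-κB targets that have a window, 12 hold one (32.4%). A match is a run of letters and not a measured binding site.

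Rela encodes p65, the subunit with the strong activation domain. In WT HSC it read 9.45 and 9.58 on the 2 mo arrays, 9.36 and 8.99 at 6 mo, 9.63 and 10.22 at 12 mo, and 9.06 and 9.10 at 21 mo. The 21 mo arrays lay under the 2 mo arrays by less than the span of the ages between them. In p53+/m HSC Rela read 9.81 and 9.79, and in p53+/- HSC 10.09 and 9.75. In WBM it read 7.88 and 8.01, below every HSC array. Ordered by mean, the 3 groups of 12 mo came first (9.92 in WT, 9.92 in p53+/- and 9.80 in p53+/m), and their arrays overlapped. HSC of 2 mo (9.52), 6 mo (9.17) and 21 mo (9.08) followed, the last pair overlapping, and WBM (7.95) came last with a gap of 1.05 on the log2 scale.

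Relb encodes the partner of p52 in the slower route, and it had the widest range of any member probe set, from 3.55 to 8.10. It read 7.28 and 7.16 in WT HSC of 2 mo, 7.69 and 7.27 at 6 mo, 5.85 and 7.69 at 12 mo, and 5.80 and 5.95 at 21 mo. The arrays of 2 and 6 mo were high and those of 21 mo low, while the 12 mo pair was split, with array A at the level of 21 mo and array B at that of 6 mo. In p53+/m HSC it read 7.64 and 7.01. The p53+/- pair was split as well, at 8.10 and 5.93. WBM lay at 3.55 and 3.87, under log2 5 and 1.93 below the nearest HSC array. All neighbours in the order of the HSC groups overlapped.

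Rel, which encodes c-Rel, stayed between 3.66 and 4.52 on all 14 arrays, so its level was not clear of the floor in any group. Nfkb2, the gene of p100 and p52, was read on 2 probe sets. On the higher (1425902_a_at) it read 6.77 and 6.75 in WT HSC of 2 mo, 7.02 and 6.50 at 6 mo, 6.52 and 6.88 at 12 mo, and 6.50 and 6.19 at 21 mo. It read 6.67 and 6.50 in p53+/m HSC, 7.59 and 6.51 in p53+/- HSC, and 6.04 and 5.24 in WBM. Both WBM arrays lay below all HSC arrays, and the HSC groups overlapped along the whole order of means. On the other (1429128_x_at) the 12 mo WT arrays read 4.37 and 7.01, a split of 2.65 in the same direction as that of Relb, and the 21 mo and WBM arrays were all between 4.07 and 4.30.

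Nfkbia was the member with the most probe sets well above the floor, 4, and they did not run together, as the plot of its probe sets shows. The one with the highest mean (1420088_at) stayed between 12.38 and 13.54 on all arrays. On 1448306_at it read 9.88 and 10.38 in WT HSC of 2 mo, 10.58 and 9.84 at 6 mo, 9.71 and 10.32 at 12 mo, and 9.25 and 8.79 at 21 mo. On that probe set it read 10.07 and 9.87 in p53+/m HSC, 10.75 and 8.72 in p53+/- HSC, and 7.82 and 8.09 in WBM. So 1448306_at was low at 21 mo and lowest in WBM, whereas 1449731_s_at was highest at 21 mo (11.48 and 11.29) and 1420089_at was lowest at 12 mo (5.23 and 5.26). Probe sets of 1 gene read different stretches of its transcripts, and which of the 4 follows the coding transcript of Nfkbia was not tested. Of the 4, only 1448306_at, not the one with the highest mean, is tied to a RefSeq transcript in the probe table. The others have no transcript entry there. Tnfaip3, the gene of the deubiquitinase A20, stayed between 2.76 and 2.86 on all 14 arrays, at the floor.

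**Figure D1:**
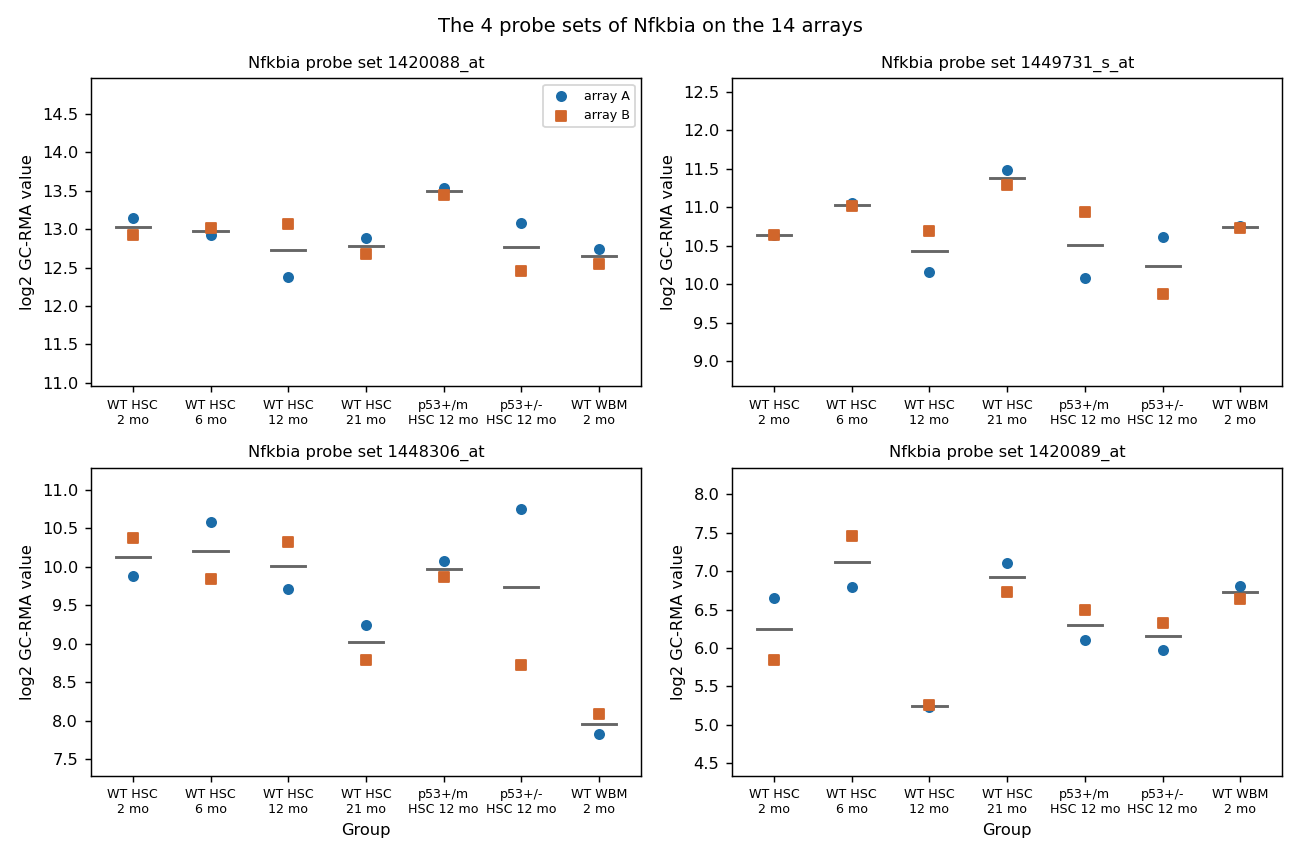
Level of Nfkbia (log2 GC-RMA value) on each of its 4 probe sets, one panel each, by group, with array A as circles, array B as squares and the mean of the pair as a bar. On 1448306_at the WBM arrays (7.82 and 8.09) lie below every HSC array, and on the other 3 probe sets they lie within the range of the HSC arrays.

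Ikbkb, the catalytic subunit IKKβ, was level: 10.88 to 11.66 on the 14 arrays (1426207_at), with neighbours in the order of groups overlapping except for HSC of 21 mo over WBM by 0.07. A second probe set (1432275_at) lay between 5.62 and 6.64, and the remaining pair at the floor. Ikbkg, the scaffold NEMO, was not level. On 1454690_at it read 5.77 and 5.98 in WT HSC of 2 mo, 6.52 and 5.89 at 6 mo, 7.78 and 6.69 at 12 mo, and 7.05 and 7.24 at 21 mo. It read 7.14 and 7.33 in p53+/m HSC, 6.62 and 7.07 in p53+/- HSC, and 7.15 and 7.39 in WBM. The groups fell into a higher set, with WBM and all HSC of 12 and 21 mo, and a lower set, with WT HSC of 6 and 2 mo. Within each set neighbours overlapped, and the gap between the sets was 0.10. On 1421209_s_at, WBM (6.02 and 5.77) and array A of 12 mo (6.01) were high and array B of 12 mo low (4.25), and the other 2 probe sets of Ikbkg were at the floor.

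Traf6 encodes a ubiquitin ligase that links interleukin 1 and Toll-like receptors to the kinases. On 1435350_at it read 5.68 and 5.66 in WT HSC of 2 mo, 6.09 and 5.73 at 6 mo, 6.08 and 6.04 at 12 mo, and 7.21 and 7.18 at 21 mo. It read 5.20 and 5.65 in p53+/m HSC, 4.61 and 5.86 in p53+/- HSC, and 5.56 and 5.54 in WBM. The 21 mo pair stood out, its lower array 1.10 above the higher array of WT HSC of 12 mo, the next group by mean. The 12 and 6 mo groups overlapped, those of 6 mo, 2 mo and WBM were 0.05 and 0.10 apart, and the p53 mutants of 12 mo lay at the low end. The other 2 probe sets of Traf6 lay between 2.27 and 2.92 on all arrays, so the pattern was seen on 1 probe set of 3.

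**Figure D2:**
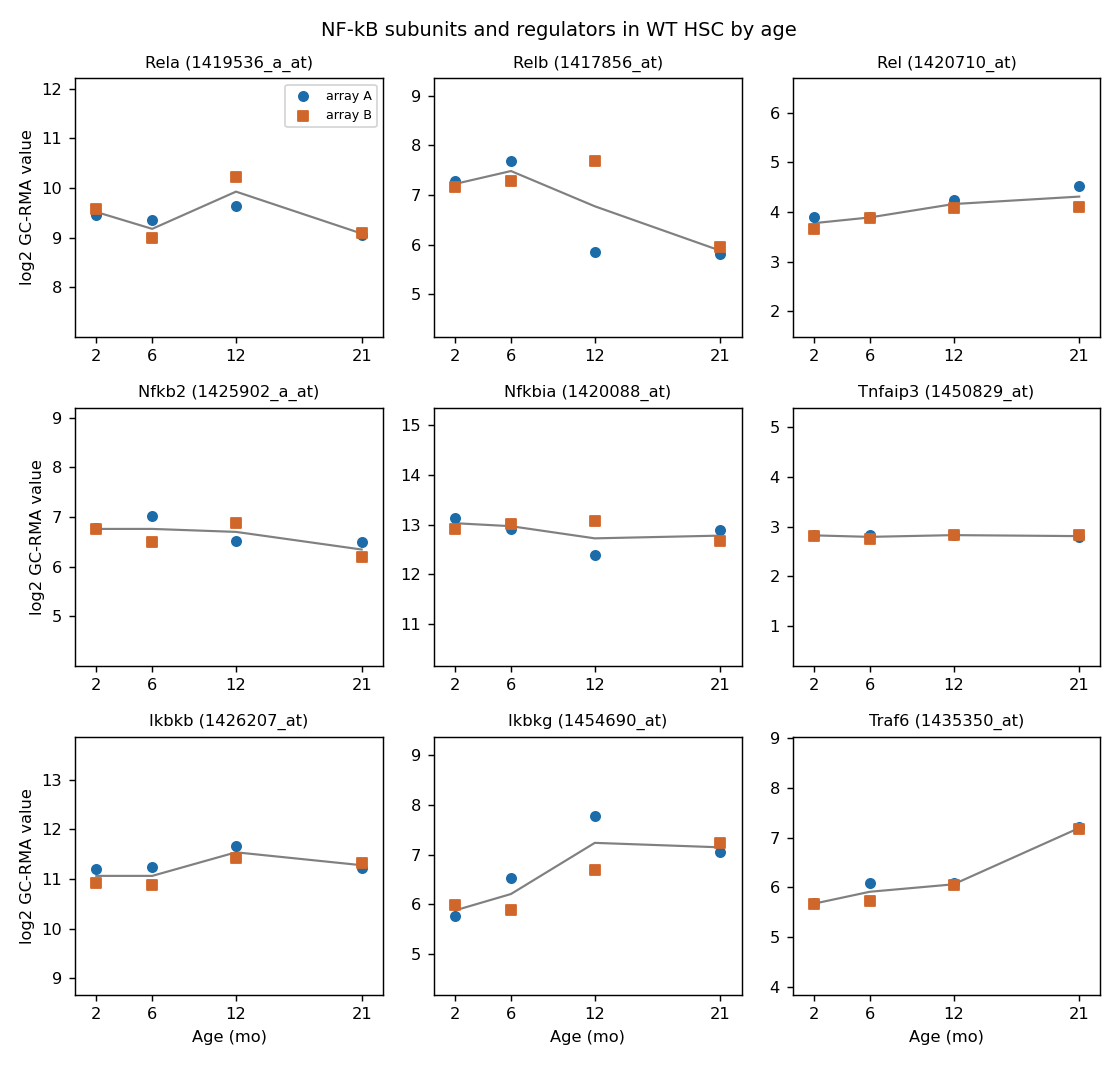
Levels of the 9 measured members in WT HSC (log2 GC-RMA value) against age in mo, one panel for each gene with its probe set, array A as circles, array B as squares and a line through the mean of each pair. Traf6 is highest on both 21 mo arrays (7.21 and 7.18), and Relb, Ikbkg and Nfkbia show the split between the 12 mo arrays.

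The first comparison asked which members changed as HSC aged. Traf6 rose with age. Its level was 7.21 and 7.18 at 21 mo, against 5.68 and 5.66 at 2 mo, and the quadratic trend over the 8 WT HSC arrays put the change between these ages at 1.45 on the log2 scale (SE 0.13, 2.74-fold, adjusted p = 0.0163 from limma). The trend accounted for most of its variance (R squared 0.96), with the midpoint of the change reached at 15.3 mo. Without either array of 2 mo or either of 21 mo the change of Traf6 stayed between 1.40 and 1.45, with adjusted p of 0.0543 to 0.0785. In the fit over all arrays Traf6 was the only one of 9 members to pass the threshold of adjusted p under 0.05 and 2-fold, and none fell. Over all 12393 genes, 1.45% passed as higher and 2.03% as lower, 3.48% in all. At an unadjusted p under 0.05 and 2-fold, 2 members were higher (Traf6 and Ikbkg) and 1 was lower (Relb), and the shares of all genes were 6.68% and 7.72%. The median change of the 9 members was 0.00, against -0.02 over all genes.

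Ikbkg and Relb had changes as large as that of Traf6 but with wider errors. Ikbkg averaged 7.14 ± 0.13 at 21 mo and 5.88 ± 0.15 at 2 mo (SD, n = 2 each), and its trend gave 1.41 (SE 0.40, adjusted p = 0.116 from limma). Relb averaged 5.87 ± 0.11 at 21 mo and 7.22 ± 0.08 at 2 mo (SD, n = 2 each), and its trend gave -1.48 (SE 0.55, adjusted p = 0.201 from limma). In both, the pairs at 2 and at 21 mo agreed closely and the 12 mo pair did not. Without array A of 12 mo, both passed, with adjusted p = 0.0359 for Ikbkg at 1.28 and 0.0252 for Relb at -1.27. Without both 12 mo arrays the values were 0.055 and 0.0245. Levels of 21 mo and 2 mo did not overlap in 8 of the 9 members, but this held for 70.5% of all genes.

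The remaining members did not pass with age. Rel gave 0.56 (SE 0.15, adjusted p = 0.1) at levels under log2 5, with the midpoint of its change at 8.9 mo. Rela gave -0.19 (SE 0.35, adjusted p = 0.821), Nfkb2 -0.40 (SE 0.19, adjusted p = 0.322), Ikbkb 0.32 (SE 0.19, adjusted p = 0.443) and Nfkbia, on its highest probe set, -0.29 (SE 0.22, adjusted p = 0.557). On 1448306_at Nfkbia gave -1.11 (SE 0.32, adjusted p = 0.124), on 1449731_s_at 0.51 (SE 0.32, adjusted p = 0.454) and on 1420089_at 0.08 (SE 0.76, adjusted p = 0.959). The second probe sets of Nfkb2 (1429128_x_at, -1.33, SE 0.79, adjusted p = 0.433), Ikbkb (1432275_at, -0.30, SE 0.13, adjusted p = 0.279) and Ikbkg (1421209_s_at, 0.15, SE 0.56, adjusted p = 0.898) did not pass either. All of these adjusted p-values are from limma. For Ikbkg the trend turned at 17.4 mo, with the midpoint of the change up to the turn at 6.5 mo. The trends of Relb and of Nfkbia on 1448306_at turned at 2.06 and 5.91 mo, and their midpoints, 2.02 and 3.14 mo, describe the change before the turn and not the fall after it.

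Steps between neighbouring ages were tested with group means over the 12 HSC arrays, and no member passed in any of them by limma. Between 12 and 6 mo Rela gave 0.75 (SE 0.21, adjusted p = 0.293) and Ikbkg 1.03 (SE 0.37, adjusted p = 0.447). Between 21 and 12 mo Traf6 gave 1.13 (SE 0.37, adjusted p = 0.373) and Rela -0.85 (SE 0.21, adjusted p = 0.232). Nfkbia on 1420089_at, the probe set that was low at 12 mo, gave -1.87 between 12 and 6 mo (SE 0.33, adjusted p = 0.107) and 1.68 between 21 and 12 mo (SE 0.33, adjusted p = 0.134). Read on the probe set with the highest mean, at an unadjusted p under 0.05 and 2-fold there were 0 members between 6 and 2 mo, 1 between 12 and 6 mo (Ikbkg) and 1 between 21 and 12 mo (Traf6). Over all genes 0.0646%, 0.145% and 0.186% passed the adjusted threshold in these 3 steps, and 1.15%, 3.35% and 3.53% the unadjusted one. Calls in the steps on either side of 12 mo depended on which 12 mo array was kept. Without array A, Rela passed at 1.05 between 12 and 6 mo (adjusted p = 0.0365) and at -1.14 between 21 and 12 mo (adjusted p = 0.0132), and without array B, Ikbkg passed at 1.58 between 12 and 6 mo (adjusted p = 0.0397).

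Myeloid markers and the 18S control differed between 2 and 21 mo too. By limma, 3 of the 10 monocyte and macrophage markers and 2 of the 11 neutrophil markers passed as higher at 21 mo. In both lists 0 passed as lower, and of all genes 1.45% passed as higher. All 11 neutrophil markers had a positive change. Their median level was 7.10 and 5.58 at 21 mo and 4.91 and 3.62 at 2 mo. The summed level of the 11 neutrophil markers was 12.2 and 10.9 (log2) at 21 mo and 10.8 and 10.1 at 2 mo, with 7 and 6 of them at log2 5 or above at 21 mo and 5 and 5 at 2 mo. The summed level of the 10 monocyte and macrophage markers was 11.8 and 11.9 at 21 mo and 10.9 and 10.9 at 2 mo. Neither sum rose steadily in between. That of the neutrophil markers was 9.2 and 9.62 at 6 mo and 10.2 and 11.1 at 12 mo. That of the monocyte and macrophage markers was 11.6 and 11.3 at 6 mo and 11 and 10.7 at 12 mo. In WBM, where all 11 neutrophil markers were at log2 5 or above, Traf6 read 5.56 and 5.54, below both 21 mo HSC arrays. On array A of 12 mo, where the 18S control was as low (4.66) as at 21 mo, Traf6 read 6.08, beside 6.04 on array B. Relb and Ikbkg on that array took the values of 21 mo or beyond, at 5.85 and 7.78. The part of the 18S signal and of the myeloid markers in the changes of Traf6, Relb and Ikbkg was not tested.

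**Figure D3:**
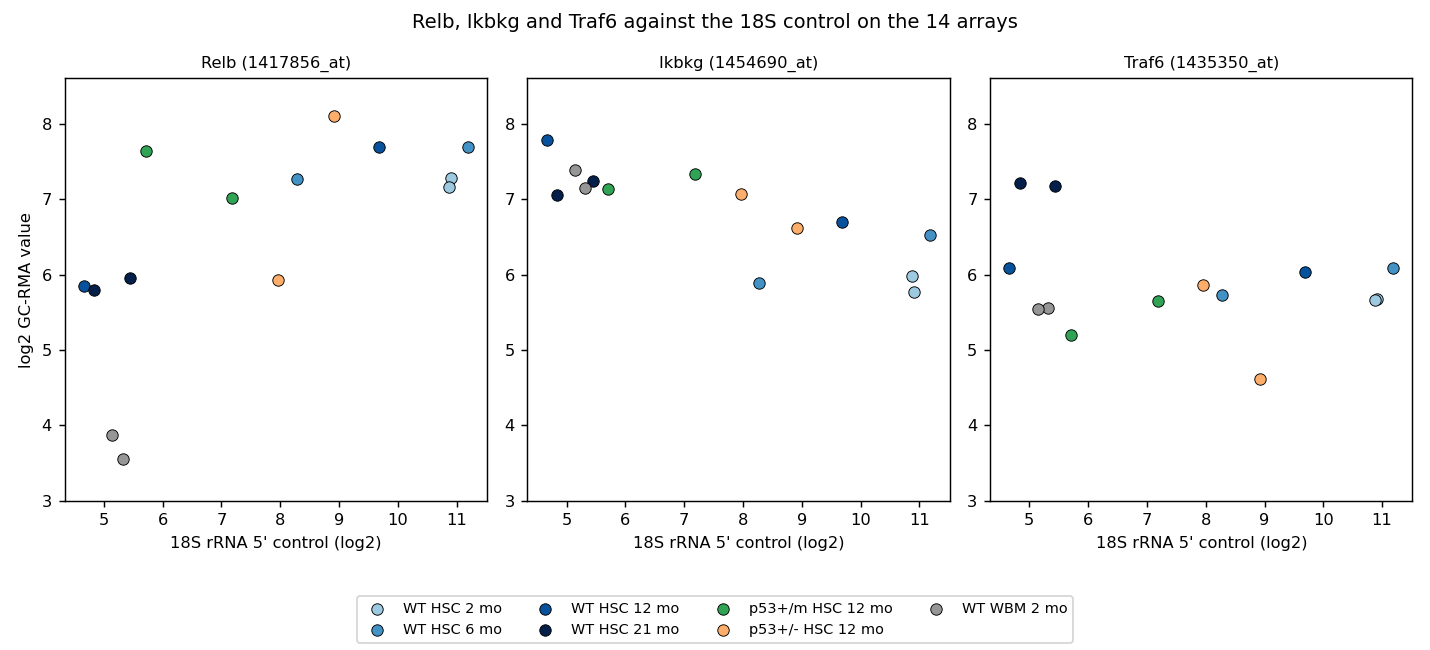
Levels of Relb, Ikbkg and Traf6 (log2 GC-RMA value) on the 14 arrays against the 18S rRNA 5′ control signal (log2) of the same array, colored by group. WT HSC arrays with a low 18S signal (array A of 12 mo and both of 21 mo) have Relb between 5.80 and 5.95. Ikbkg lies between 7.05 and 7.78 on them, while Traf6 is high only on the 21 mo arrays. Array A of p53+/m HSC also has a low signal (5.71), with Relb at 7.64, Ikbkg at 7.14 and Traf6 at 5.20.

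HSC were next set against WBM, both of 2 mo, to ask which members mark the stem cells in the marrow. Rela and Relb were higher in HSC and Ikbkg was lower. Relb averaged 7.22 ± 0.08 in HSC and 3.71 ± 0.23 in WBM (SD, n = 2 each), a difference of 3.51 (SE 0.56, adjusted p = 0.00679 from limma), measured against a WBM level under log2 5, so that its size is not exact. Rela averaged 9.52 ± 0.09 in HSC and 7.95 ± 0.09 in WBM (SD, n = 2 each), a difference of 1.57 (SE 0.21, 2.96-fold, adjusted p = 0.0037 from limma). Ikbkg averaged 5.88 ± 0.15 in HSC and 7.27 ± 0.17 in WBM (SD, n = 2 each), a difference of -1.40 (SE 0.39, adjusted p = 0.049 from limma). The call for Ikbkg was lost without either array of HSC of 2, 6 or 21 mo or either of WBM (adjusted p of 0.0594 to 0.202), and kept without either array of 12 mo. Of all genes, 13.3% passed as higher and 10.5% as lower in this comparison, 23.8% in all, beside 3 of 9 members. WBM is a mixture, and fewer cells that make a transcript cannot be told apart from less of it per cell.

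Nfkb2 did not pass, at 6.76 ± 0.01 in HSC and 5.64 ± 0.57 in WBM (SD, n = 2 each), a difference of 1.11 (SE 0.31, adjusted p = 0.0504 from limma), and passed without array A of WBM at 1.51 (adjusted p = 0.0252). Nfkbia gave 0.39 (SE 0.23, adjusted p = 0.361) on its highest probe set, but on 1448306_at it was 4.52-fold higher in HSC, at 10.13 ± 0.35 against 7.96 ± 0.19 in WBM (SD, n = 2 each), a difference of 2.18 (SE 0.35, adjusted p = 0.00689 from limma). Ikbkb differed by -0.01 (SE 0.16, adjusted p = 0.982) and Traf6 by 0.12 (SE 0.11, adjusted p = 0.619). Nfkb2 on 1429128_x_at differed by 1.65 (SE 0.80, adjusted p = 0.243), Ikbkg on 1421209_s_at by -1.23 (SE 0.53, adjusted p = 0.179), Ikbkb on 1432275_at by 0.17 (SE 0.14, adjusted p = 0.585), and Nfkbia by -0.10 on 1449731_s_at (SE 0.17, adjusted p = 0.787) and by -0.47 on 1420089_at (SE 0.33, adjusted p = 0.457). Counted by probe set, 3 of 21 were higher and 1 lower, against 11% and 9.69% of all probe sets. Because the 18S signal of the WBM arrays was close to that of the 21 mo HSC arrays and not to that of 2 mo, HSC of 21 mo were also set against WBM, a comparison added after seeing the data. Rela (1.13, adjusted p = 0.0155) and Relb (2.17, adjusted p = 0.0487) passed in that comparison as well, Traf6 passed at 1.65 (adjusted p = 0.000234), and Ikbkg did not, at -0.13 (adjusted p = 0.82). Nfkbia on 1448306_at was at 1.06 with adjusted p = 0.103. These p-values are from limma too.

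**Figure D4:**
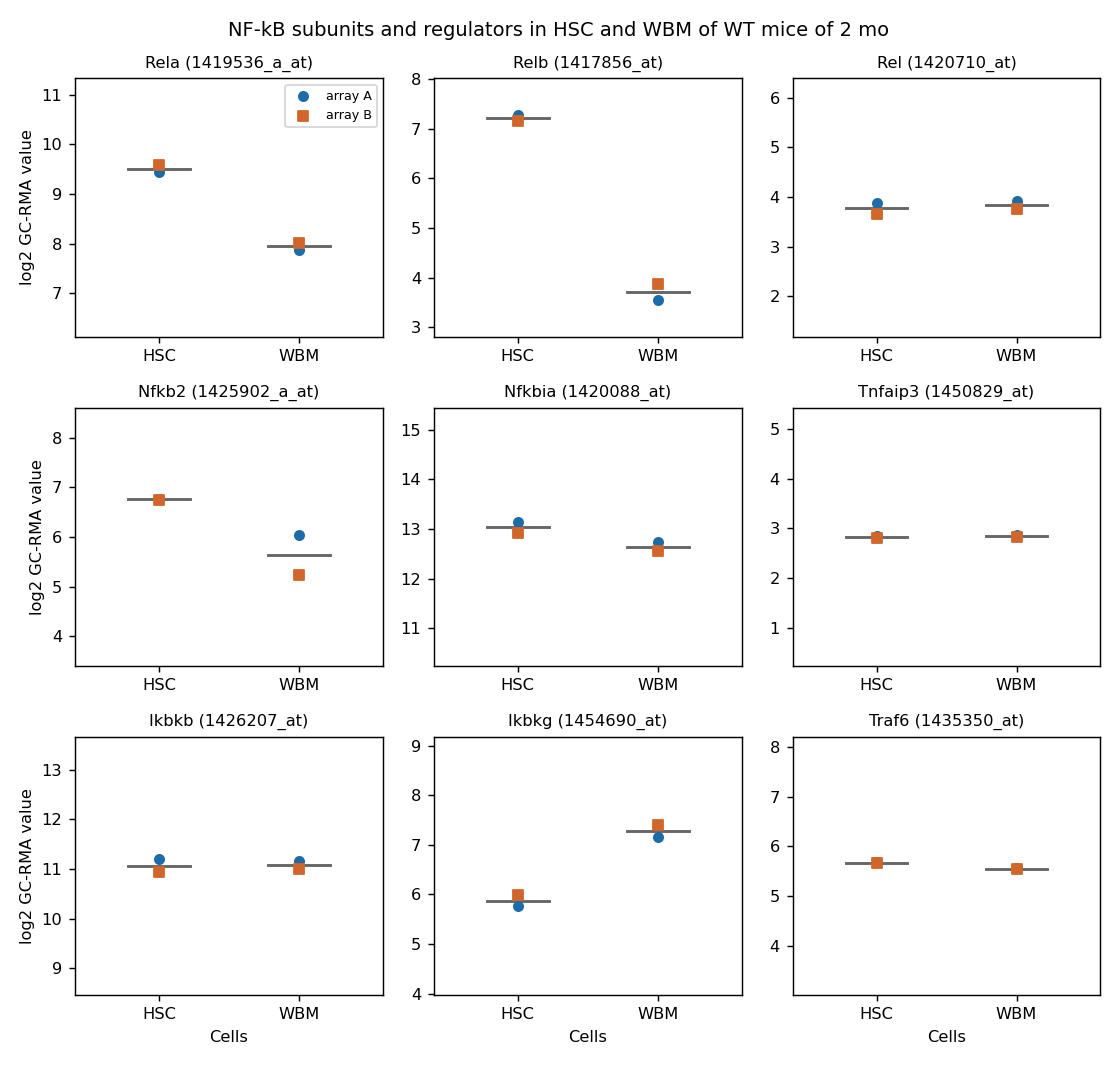
Levels of the 9 measured members (log2 GC-RMA value) in HSC (left) and WBM (right) of WT mice of 2 mo, array A as circles, array B as squares and the mean of each pair as a bar. Rela and Relb are higher in HSC (9.52 and 7.22 on average) than in WBM (7.95 and 3.71), Ikbkg is lower in HSC (5.88) than in WBM (7.27), and Rel and Tnfaip3 stay under log2 5 in both.

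The study measured the p53 mutants to learn what part stem cells play in the aging of the organism. No member passed the threshold between p53+/m and p53+/-, between p53+/m and WT, or between p53+/- and WT by limma, and at an unadjusted p under 0.05 and 2-fold the count was 0 in each. Of all genes, 0.218%, 0.444% and 0.194% passed the adjusted threshold in these 3 comparisons, and 3.57%, 4.48% and 3.1% the unadjusted one. Nfkbia on its highest probe set read 13.54 and 13.45 in p53+/m HSC, above 13.08 and 12.45 in p53+/- HSC and above 12.38 and 13.07 in WT HSC. It was 0.74 higher than in p53+/- (SE 0.27, adjusted p = 0.43) and 0.77 higher than in WT (SE 0.27, adjusted p = 0.337), neither past the threshold. Its other probe sets did not carry this: against WT, p53+/m gave -0.05 on 1448306_at (SE 0.63) and 0.08 on 1449731_s_at (SE 0.34), both with adjusted p = 1. On 1420089_at p53+/m gave 1.06 (SE 0.33, adjusted p = 0.273) and p53+/- gave 0.90 (SE 0.33, adjusted p = 0.499) against WT. Traf6 was lower on all 4 mutant arrays than on the WT arrays of 12 mo, by 0.63 in p53+/m (SE 0.37, adjusted p = 0.689) and by 0.83 in p53+/- (SE 0.37, adjusted p = 0.652), and neither passed. For Relb the SE of each of these differences was 0.80, since both the WT and the p53+/- pair were split, and a difference of 2-fold could not be told from none. Rela differed by 0.13 or less in size among the 3 genotypes (SE 0.21).

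**Figure D5:**
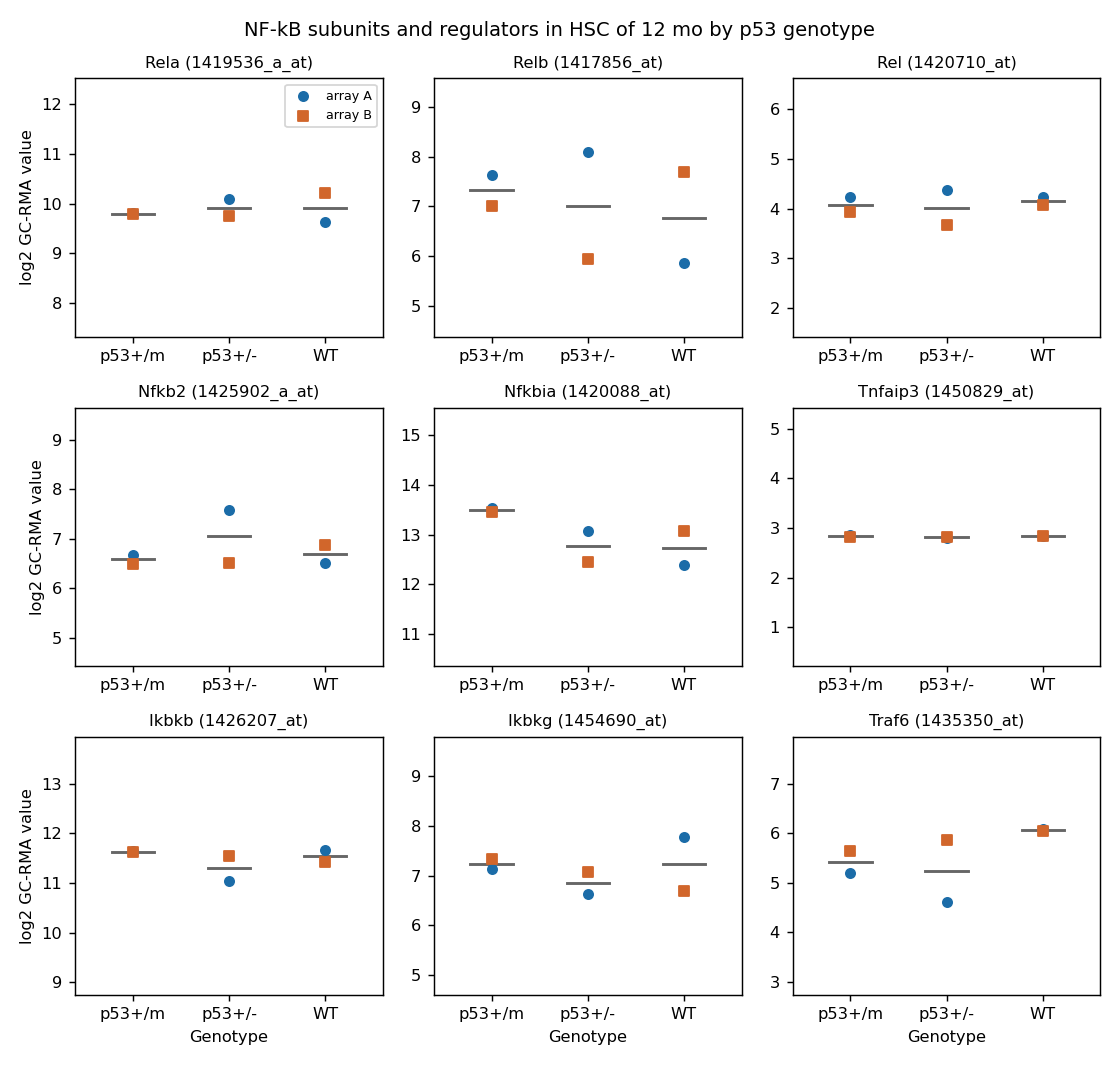
Levels of the 9 measured members (log2 GC-RMA value) in HSC of 12 mo from p53+/m, p53+/- and WT mice, from left to right, array A as circles, array B as squares and the mean of each pair as a bar. Nfkbia is highest in p53+/m (13.54 and 13.45) and Traf6 highest in WT (6.08 and 6.04), and the arrays of p53+/- and of WT are far apart for Relb.

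The split pairs set the precision at 12 mo. Relb differed by -1.84 (array A minus array B) in WT HSC and by 2.17 in p53+/- HSC, against -0.32 to 0.63 in the other 5 groups. Nfkbia on 1448306_at differed by 2.03 in p53+/- HSC, Nfkb2 by 1.08 and Traf6 by -1.24. In p53+/- HSC, 5.15% of all genes differed at least 2-fold between the arrays. The 18S signal was 8.92 and 7.96 on the p53+/- arrays A and B, beside 4.66 and 9.68 on the WT arrays of 12 mo. In both pairs the array with the lower signal had the lower Relb. The p53+/m pair went the other way. Its array A had the lower signal (5.71, against 7.18 on array B) and the higher Relb (7.64, against 7.01). The part of the 18S signal in these splits was not tested.

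The rest of the pathway was read from 3 lists. Of 58 other inhibitors, kinases and adaptors, 44 had a probe set. With age 2 rose and 1 fell, against 1.45% and 2.03% of all genes. Nfkbiz, an atypical nuclear IκB protein, read 12.35 and 12.08 at 21 mo, against 10.97 and 10.37 at 2 mo, and rose by 1.52 (SE 0.19, adjusted p = 0.0234 from limma). Tab3, which tethers the kinase TAK1 to ubiquitin chains built by TRAF6, read 9.89 and 9.84 at 21 mo, against 8.54 and 8.58 at 2 mo, and rose by 1.29 (SE 0.15, adjusted p = 0.0225 from limma). Rbck1 (HOIL-1), a part of the ligase that builds linear ubiquitin chains on NEMO, read 6.67 and 6.13 at 21 mo, against 7.70 and 7.85 at 2 mo, and fell by 1.52 (SE 0.25, adjusted p = 0.0382 from limma). All 3 calls were lost without either array of 2 mo and without either of 21 mo, those of Nfkbiz and Rbck1 also without either of 6 mo. That of Nfkbiz was lost with the mean over the probe sets of the gene, and that of Rbck1 with the array letter as a block. The median change over the 44 genes was 0.00, against -0.02 over all genes.

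Between HSC and WBM, 10 of these 44 were higher in HSC and 6 lower, against 13.3% and 10.5% of all genes. Differences from a level under log2 5 depend on the floor of the array, and their size is not exact. Among the higher ones were the A20 partners Tnip2 (7.95 in HSC and 3.01, under log2 5, in WBM) and Tnip1 (9.99 in HSC and 6.96 in WBM, 8.16-fold), with the receptor kinase Irak1 (6.26-fold) and the IκB binding protein Nkiras1 (4.85-fold). Tab3 (8.56 in HSC and 11.42 in WBM) was at -2.86, before Traf5 (-2.45), Nkiras2 (-1.62) and the kinase Map3k8 (-1.35), with Traf5 and Map3k8 under log2 5 in HSC. Tnip2 and Tnip1 kept the call with HSC of 21 mo in place of 2 mo, whereas Irak1 at 0.68 (adjusted p = 0.378 from limma) and Nkiras1 at 0.68 (adjusted p = 0.279 from limma) lost it. The median difference of the list was 0.13, against -0.01 over all genes. No gene of the list passed between genotypes by limma. At an unadjusted p under 0.05 and 2-fold, 1 was lower between p53+/m and p53+/-, 1 was higher and 3 lower between p53+/m and WT, and 4 were higher and 1 lower between p53+/- and WT, where 3.57%, 4.48% and 3.1% of all genes passed in either direction.

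Of 30 ligands and receptors, 29 had a probe set, and 11 of them stood at log2 5 or above on at least 2 of the 8 WT HSC arrays. None passed with age by limma, and at an unadjusted p under 0.05 and 2-fold 1 was higher and 3 lower. Tlr4, the receptor for lipopolysaccharide, read 7.29 and 7.59 at 21 mo, against 4.93 and 5.94 at 2 mo, at 1.95 (SE 0.45, adjusted p = 0.0792 from limma). The study reports Tlr4 as up-regulated with age. Here its change had the same direction but did not pass. With age 180 genes passed as higher and 251 as lower here, and the lists of the study are far longer. Between HSC and WBM, 3 ligands or receptors were higher in HSC and 9 lower, against 13.3% and 10.5% of all genes. Cd14, the lipopolysaccharide coreceptor, which is also on the list of monocyte markers, read 8.05 and 8.71 in HSC, against 2.23 and 2.42 in WBM, under log2 5. Il18 (2.26) and the receptor Tnfrsf1b (1.16) were higher as well. Tnfsf13b, the B cell survival factor BAFF, was at the floor in HSC and 8.13 on average in WBM, and Il1b and Tlr1 were at the floor in HSC as well. Tlr4 differed by -2.59. With HSC of 21 mo in place of 2 mo, Il18 and Tlr4 lost the call, while Cd14, Tnfrsf1b, Tnfsf13b, Il1b and Tlr1 kept it. Il18r1 read 2.72 and 2.62 in p53+/m HSC, against 5.01 and 5.66 in WT HSC of 12 mo, and fell by 2.67 (SE 0.41, adjusted p = 0.0494 from limma). It read 2.56 and 2.02 in p53+/- HSC, which differed from WT by -3.04 (SE 0.41, adjusted p = 0.0558 from limma), and both mutants were under log2 5. The call for p53+/m against WT held in 6 of 19 alternatives, with adjusted p of 0.0217 to 0.138, and was lost without any single array of 2, 6 or 21 mo or of either mutant.

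Of 52 targets of NF-κB, 49 had a probe set, and 29 of them stood at log2 5 or above on at least 2 of the 8 WT HSC arrays. With age 6 rose and 2 fell, against 1.45% and 2.03% of all genes. Selp, Clu and Ptgs2, which rose, are genes that the study named from these samples, as is Icam1, so their part of the count is not independent of the data. All 8 calls were lost without either array of 2 mo and without array B of 21 mo. All but that of Clu were also lost without array A of 21 mo. Selp, the gene of P-selectin, read 10.63 and 10.78 at 21 mo, against 5.86 and 5.85 at 2 mo, a change of 4.80 (SE 0.43, adjusted p = 0.0162 from limma). Mt1, a metallothionein, read 8.62 and 8.42 at 21 mo, against 2.95 and 2.92, under log2 5, at 2 mo. Clu changed by 5.53, Ptgs2, the inducible cyclooxygenase, by 5.22, Lcn2, also a neutrophil marker and under log2 5 at 2 mo, by 3.27, and Ier3 by 1.42. Irf8, a transcription factor of myeloid and lymphoid cells (-1.81, under log2 5 at 21 mo), and the peptide transporter Tap1 (-1.45) fell. The call for Tap1 held in 8 of 17 alternatives and was also lost with the mean over the probe sets of the gene. With the array letter as a block, the calls for Ptgs2, Mt1, Lcn2, Ier3 and Tap1 were lost. Icam1, an adhesion molecule that p65 is known to turn on, read 10.86 and 11.24 at 21 mo, against 10.98 and 10.82 at 2 mo, at 0.19 (SE 0.18, adjusted p = 0.67 from limma). The study counts Icam1 among the genes up-regulated with age, on a list far longer than the calls made here. Icam1 did not pass here. The median change of the 49 targets was 0.02.

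In HSC against WBM, 5 targets were higher and 8 lower, against 13.3% and 10.5% of all genes. Icam1 (3.35), Ier3 (3.35), Tap1 (2.65) and Gadd45b, which was under log2 5 in WBM, were among the higher ones. With the mean over the probe sets of the gene, Tap1 was at 0.60 and lost the call. Mmp9 and Lcn2, both products of neutrophils, and Ccl5 were among the lower ones and under log2 5 in HSC. Vcam1 (-6.40) was lower too, and read 7.55 and 4.23 in HSC. With HSC of 21 mo in place of 2 mo, Gadd45b and Vcam1 lost the call. Icam1, Ier3, Tap1, Mmp9, Lcn2 and Ccl5 kept it. Icam1 read 10.98 and 10.82 in HSC and 7.50 and 7.61 in WBM. Between genotypes 1 target passed. Cxcl1, a neutrophil chemokine, read 6.85 and 6.32 in p53+/- HSC, against 2.91 and 3.20 in WT HSC of 12 mo. The difference was 3.53 (SE 0.33, adjusted p = 0.0219 from limma), from a level under log2 5. This call held in 14 of 19 alternatives. It was lost without either array of 2 mo or either of 6 mo, and with the array letter as a block. In p53+/m HSC Cxcl1 read 4.52 and 5.55, and it was at or under 3.26 on all WT HSC arrays. Icam1 in the mutants read 11.49 and 11.57 in p53+/m HSC, 12.55 and 11.81 in p53+/- HSC, and 11.26 and 11.63 in WT HSC of 12 mo.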

How the data were processed

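HSC and WBM RNA was measured on 14 Affymetrix MOE430A arrays, 2 in each of 7 groups. The authors read the arrays with Affymetrix software and deposited GC-RMA values, which correct each probe's background by its GC content and normalize between arrays, on the log2 scale. For the GCRMA version, and for whether 1 run covered every array, the answer is not given in the sources used here. Amplification in 2 rounds favors the 3′ ends of transcripts, so a probe set far from them can read low. The number of arrays limits the precision. Array medians lay between 3.93 and 4.10, with 42.7% to 43.6% of the probe sets at log2 5 or above, so values were used as deposited.

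The 22626 probe sets, without 64 controls, entered lmFit and eBayes of limma 3.58.1 (R 4.3.3). P-values were adjusted over all of them by Benjamini-Hochberg, and a call needed an adjusted p under 0.05 with a change of at least 2-fold. The age test was a quadratic trend over 8 WT HSC arrays, on 21 mo minus 2 mo. HSC against WBM used group means over 10 WT arrays, and genotypes and neighbouring ages group means over 12 HSC arrays. Low values were kept. Gene counts use the 12393 genes with a single symbol in the probe table. Every member probe set is described, those that stayed at the floor by their range only. From each list the counts and up to 4 genes of the largest change in each direction are given. The midpoint of the change, the age at which the fitted trend is midway between its end values or, if it turns, between its start and its turn, is given where R squared is over 0.50. The rule also names Selp, Clu, Ptgs2 and Icam1. Tlr4 with age and the splits between arrays were singled out after their values were seen. Members and lists were chosen with earlier results of these data known, and no list was tested.

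Promoters are from RefSeq on GRCm38.p6, matched by symbol for 7 of the 10 members. The fits were tested on simulated data. Alternatives left out each array, added quantile normalization, a filter on low values or an intensity trend, dropped the fold minimum, averaged probe sets, changed the arrays or the form of the trend, or added the array letter as a block.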

Additional observations from a re-analysis of the deposited data

How the results depend on the processing

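The 2 arrays in each group and the 12 mo WT pair set the limits. Past the threshold between 21 and 2 mo there was 1 member, 0 to 3 when single arrays were left out: 0 without either array of 2 mo or of 21 mo, where Traf6 kept changes of 1.40 to 1.45 with adjusted p of 0.0543 to 0.0785, and 3 without array A of 12 mo (Traf6, Ikbkg and Relb). The count was 2 with the filter on low values (Traf6 and Ikbkg), 2 without both 12 mo arrays (Traf6 and Relb), and 0 with the mean over the probe sets of a gene, where Traf6 was at 0.48 because its other 2 probe sets were at the floor. Between 12 and 6 mo the count of 0 became 0 to 1, and between 21 and 12 mo 0 to 1, with single arrays left out. Rel and Tnfaip3 dropped out under the filter.

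For HSC against WBM, Rela, with adjusted p of 0.000689 to 0.0282, and Relb, with 0.000239 to 0.0487, passed in all 18 alternatives. Ikbkg passed in 7 of 18, with adjusted p of 0.0102 to 0.82, and Nfkb2 in 3 of 18. With HSC of 21 mo in place of 2 mo, an alternative chosen after seeing the data, the 3 members past the threshold were Rela, Relb and Traf6, and the target Mt1 and the regulator Otud7b turned direction, to 1.36 and -0.52, against -4.22 and 1.27 with HSC of 2 mo. Counts of members past the threshold between genotypes stayed at 0 in all alternatives. The letters A and B share no source in the labels, and the deviations of array A from the group mean correlated at -0.31 to 0.16 over 21 pairs of groups, above 0.1 in 2 of them. With the letter as a replicate block, 1 member passed with age (Traf6, adjusted p = 0.0343) and 2 in HSC against WBM (Rela and Relb), where Ikbkg had adjusted p = 0.0698, and over all probe sets the calls with age went to 136 higher and 153 lower, beside 299 and 342 without it. Leaving out single arrays moved these calls further, to 14 to 1135 higher and 6 to 1083 lower, so the shares over all genes that stand beside the members' counts with age move with them.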
